A study of Mus musculus with 2 samples.

Results

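The genes described here are *Cdk1*, the 3 B cyclin genes *Ccnb1*, *Ccnb2* and *Ccnb3*, the 3 CDC25 phosphatase genes, the inhibitory kinase genes *Wee2* and *Pkmyt1*, and the MAP kinase activator gene *Mos*, which were taken by gene name. All 10 had a row among the 18467 genes with values. They were measured by RNA sequencing in oocytes of C57BL/6 mice aged 2 weeks. One group was wild type. The other group, named Kat8 Gdf9 cKO and called cKO here, carried *Gdf9*-Cre and *Kat8* fl/fl, so that *Kat8*, the gene of a histone H4 acetyltransferase, was deleted by a Cre recombinase under an oocyte promoter. Each group was 1 library, and how many mice or oocytes it pooled, and whether the wild type mice carried a floxed allele, was not given in the labels. With 1 library per group no test between the genotypes was possible, and an effect of genotype cannot be told apart from a difference between the 2 single libraries.

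CDK1 bound to a B cyclin is the kinase activity, called maturation-promoting factor, that takes a fully grown oocyte out of its prophase arrest and into the first meiotic division. WEE2 and MYT1 (the product of *Pkmyt1*) hold CDK1 inactive by phosphorylating it in its ATP-binding loop, and the CDC25 phosphatases remove those phosphates. MOS starts the oocyte MAP kinase cascade and is needed for the later arrest at metaphase of the second division. Growing oocytes store many of these mRNAs with short poly(A) tails and translate them only at maturation, so an mRNA level is not a level of protein or of kinase activity.

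The libraries matched their labels. *Kat8* stood at 166 FPKM (sequenced fragments, scaled to transcript length and library size) in wild type and 0.985 FPKM in cKO oocytes. All 10 oocyte markers examined were at 19.4 FPKM or more in both libraries, and their summed level was 13736 FPKM in wild type and 14996 FPKM in cKO oocytes. By the rule of size defined below 1 was higher and 1 lower, against 18.2% and 12.2% of all genes at 1 FPKM or more. *Ddx4* was higher, at 19.4 FPKM in wild type and 57.7 FPKM in cKO oocytes. *Oosp1* was lower, at 2550 and 878 FPKM. *Gdf9*, the most abundant, stood at 5201 and 7658 FPKM, and without it the other oocyte markers together summed to less in the cKO than in wild type. Where values are given as a pair, the first is wild type and the second cKO. The 10 granulosa cell markers summed to 102 and 123 FPKM. Of the 9 that reached 1 FPKM, 4 were higher in the cKO and 0 lower by the rule of size defined below. The shares of all genes were the same 18.2% and 12.2%. The 8 theca and stroma markers summed to 2.10 and 11.2 FPKM, with *Lum* listed at 0 in the wild type. All 4 of these markers that reached 1 FPKM were at least 2-fold higher in the cKO. The part of other ovarian cells in the values below was not tested, and in such bulk samples fewer cells of a type and less RNA per cell cannot be told apart. Library totals are not given. Among 3503 genes under 0.6 FPKM in both libraries, the most common ratio of cKO to wild type FPKM was 1.24. This may be the step that a single fragment makes, in which case low values are coarser for the cKO, but no fragment counts are given.

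Most genes of the CDK1 module stood within 2-fold of each other in the 2 libraries, and the 1 exception was the least abundant cyclin. By the rule of size used here (at least 1 FPKM in either library and a log2 ratio of FPKM + 0.1, cKO over wild type, of at least 1 or at most -1), 1 of the 10 genes was lower, 0 were higher and 9 were neither. By the same rule 12.2% of the 11816 genes that reached 1 FPKM were lower, 18.2% higher and 30.4% either. The 1 gene past the rule was *Ccnb3*. The median log2 ratio of the 10 genes was -0.41, against 0.06 for all genes, and 7 of the 10 had a ratio below 0, as had 46.8% of all genes. Their order by level was nearly the same in both libraries. *Mos*, *Ccnb1*, *Wee2* and *Ccnb2* were the 4 most abundant, in that order, in both. With 1 library each, which neighbours in that order differ beyond replicate spread cannot be told.

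**Figure D1:**
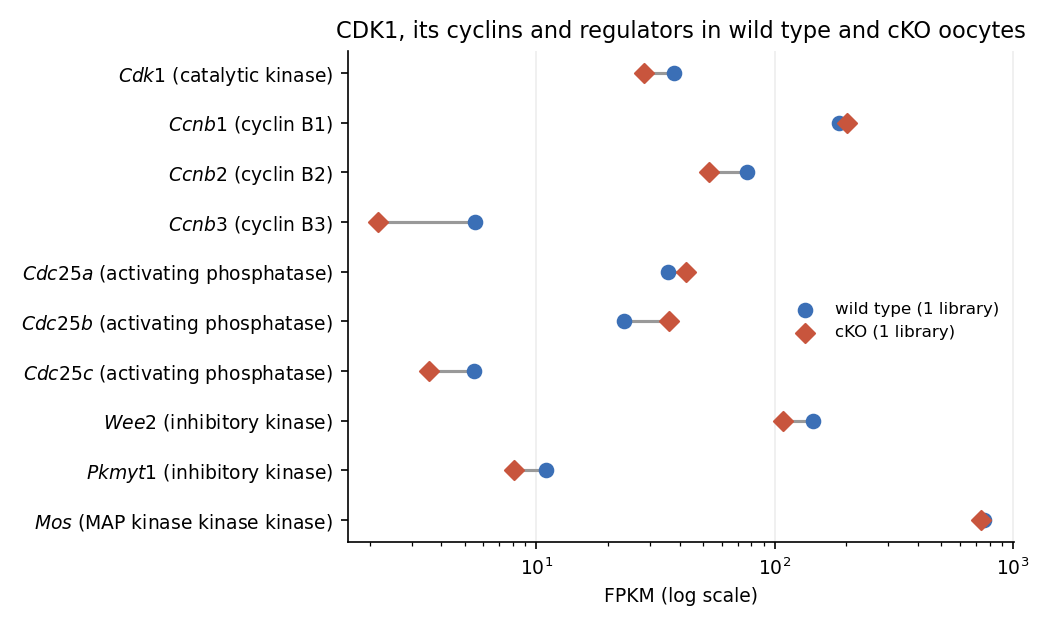
FPKM of the 10 genes on a log scale, as circles for the wild type library and diamonds for the cKO library, with a grey line joining the values of 1 gene. The pairs lie close together for *Mos* (754 and 733 FPKM) and *Ccnb1* (187 and 201 FPKM) and farthest apart for *Ccnb3* (5.54 and 2.16 FPKM).

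*Cdk1*, the catalytic subunit (GRCm38 chromosome 10, 69335146 to 69352938, minus strand, 8 exons), stood at 37.8 FPKM in wild type and 28.5 FPKM in cKO oocytes. It was thus 1.33-fold lower in the cKO, a log2 ratio of -0.41, and 29.7% of all genes at 1 FPKM or more had a lower ratio. With FPKM rescaled to the same total in both libraries (TPM), its log2 ratio was -0.16, and the median of all genes was then 0.30.

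The 3 B cyclin genes differed from each other in direction, with *Ccnb1* above and *Ccnb2* and *Ccnb3* below a log2 ratio of 0 as deposited and under all 6 alternatives that rescale the values. *Ccnb1*, the main B cyclin of oocyte maturation (chromosome 13, 100778650 to 100786570, minus strand), stood at 187 FPKM in wild type and 201 FPKM in cKO oocytes, 1.08-fold higher, a log2 ratio of 0.10. *Ccnb2*, which can take the place of cyclin B1 in mouse oocytes (chromosome 9, 70407692 to 70421547, minus strand), stood at 76.9 and 52.9 FPKM, 1.45-fold lower, a log2 ratio of -0.54. *Ccnb3*, whose product is needed in mouse oocytes to leave metaphase of the first division (chromosome X, 6979652 to 7041619, minus strand, 14 exons), stood at 5.54 and 2.16 FPKM, 2.56-fold lower, a log2 ratio of -1.32. Only 7.04% of all genes had a lower log2 ratio than *Ccnb3*.

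Within the B cyclin family *Ccnb1* took 69.4% of the summed FPKM in wild type and 78.5% in the cKO library. *Ccnb2* took 28.5% and 20.6%, and *Ccnb3* 2.05% and 0.844%. Such ratios between genes of 1 library do not depend on how the libraries are scaled to each other. A trend of the log2 ratio on transcript length or GC content can still enter them. The ratio of *Ccnb1* to *Ccnb2* was 2.44 in wild type and 3.80 in the cKO library, 1.56 times as high. The ratio of *Ccnb1* and *Ccnb2* together to *Cdk1* was 6.995 and 8.94. These and the other ratios below were chosen after the values were seen. *Ccnb1* also has 5 copies elsewhere in the annotation that match its transcript at 94.4% to 99.2% identity over 383 to 1294 bases, among them *Ccnb1-ps*. None of the 5 was found by name in the deposited table, so the assignment of reads to *Ccnb1* is uncertain. No copy at 90% identity over 200 bases was found for *Cdk1*, *Ccnb2* or *Ccnb3*.

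The promoters of *Cdk1* and of the B cyclin genes are shown because the cyclins, which share a role, differed in direction. CCAAT boxes bind the factor NF-Y, and the CHR (cell cycle genes homology region) binds the DREAM and MMB complexes that time the transcription of cell division genes. The 250 bases before the start were taken from RefSeq (GRCm38.p6) and searched on both strands for CCAAT, for the CHR letters TTTGAA and TTCGAA, and for TTCCCGC, which E2F factors bind. Capitals mark each match, and ATTGG is CCAAT on the other strand.
Cdk1 promoter, chr10:69352913-69353162, minus strand: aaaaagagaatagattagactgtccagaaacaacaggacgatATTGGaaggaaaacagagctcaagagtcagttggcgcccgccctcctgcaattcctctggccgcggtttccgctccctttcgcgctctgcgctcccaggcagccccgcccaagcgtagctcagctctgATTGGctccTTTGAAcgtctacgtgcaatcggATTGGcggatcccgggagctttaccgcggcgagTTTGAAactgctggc
Ccnb1 promoter, chr13:100786487-100786736, minus strand: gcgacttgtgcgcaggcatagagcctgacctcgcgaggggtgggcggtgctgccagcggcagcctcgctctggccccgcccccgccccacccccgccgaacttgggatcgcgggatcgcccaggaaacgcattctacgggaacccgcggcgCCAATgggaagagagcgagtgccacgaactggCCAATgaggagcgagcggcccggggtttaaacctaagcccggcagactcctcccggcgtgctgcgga
Ccnb2 promoter, chr9:70421555-70421804, minus strand: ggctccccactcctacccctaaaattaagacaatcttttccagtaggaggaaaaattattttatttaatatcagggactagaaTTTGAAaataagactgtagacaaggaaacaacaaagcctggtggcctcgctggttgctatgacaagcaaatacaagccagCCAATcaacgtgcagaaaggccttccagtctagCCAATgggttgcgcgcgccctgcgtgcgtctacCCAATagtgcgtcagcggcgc
Ccnb3 promoter, chrX:7041620-7041869, minus strand: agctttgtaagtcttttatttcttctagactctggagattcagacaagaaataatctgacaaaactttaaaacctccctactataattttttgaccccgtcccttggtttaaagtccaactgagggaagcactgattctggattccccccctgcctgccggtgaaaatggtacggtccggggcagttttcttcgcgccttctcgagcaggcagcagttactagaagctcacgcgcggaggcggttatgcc
A promoter was in the table for 7 of the 10 genes. CCAAT was found in 6 of these 7 (*Cdk1* 3 times, *Ccnb1* 2 times, *Ccnb2* 3 times, *Cdc25a* 2 times, and *Cdc25b* and *Wee2* 1 time each), whereas 33.8% of 32851 promoters of the same length hold it. *Ccnb3* held none of the searched motifs, whereas *Ccnb2*, also below a log2 ratio of 0, held both CCAAT and TTTGAA. Whether these letters bear on the levels was not tested. TTTGAA was found in *Cdk1* and *Ccnb2*, and in 16.0% of all promoters. TTCGAA and TTCCCGC were found in 0 of the 7, and in 1.34% and 3.82% of all promoters. A match is a description of the letters, and no binding was measured. Bases past the annotated start and other forms of these motifs were not searched, so a missing match says nothing of either.

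The CDC25 phosphatase genes, whose products activate CDK1, split in the same sense, with *Cdc25a* and *Cdc25b* above and *Cdc25c* below 0 under the same 6 alternatives. *Cdc25b*, the form that mouse oocytes need to resume meiosis (chromosome 2, 131186949 to 131198497, plus strand, 16 exons), stood at 23.4 FPKM in wild type and 35.9 FPKM in cKO oocytes. It was 1.53-fold higher, a log2 ratio of 0.61, the highest of the 10 genes, although 28.3% of all genes had a higher one. *Cdc25a*, the family member also used at the start of DNA replication (chromosome 9, 109875579 to 109893895, plus strand), stood at 35.9 and 42.4 FPKM, 1.18-fold higher, a log2 ratio of 0.24. *Cdc25c*, which mice can lack without a fertility defect, stood at 5.46 and 3.55 FPKM, 1.54-fold lower, a log2 ratio of -0.61. *Cdc25a* was thus the most abundant CDC25 mRNA in both libraries. Its ratio to *Cdc25b* was 1.53 in wild type and 1.18 in the cKO library. The end of *Cdc25b* overlaps *Spef1* on the other strand by 334 bases, and *Spef1* stood at 0.362 and 1.35 FPKM. *Cdc25c* overlaps *Gm3550* on the other strand by 1656 bases, and no row of that name was found in the deposited table, so the *Cdc25c* value could include its reads. With the trend of the log2 ratio on transcript length and GC content removed, *Cdc25b* was at 0.28.

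As deposited, the oocyte inhibitory kinase genes had nearly the same log2 ratio as each other, short of the 2-fold rule. *Wee2*, the oocyte form of WEE1 that keeps the prophase arrest and later helps the egg leave metaphase (chromosome 6, 40439088 to 40466813, plus strand, 12 exons), stood at 144 FPKM in wild type and 109 FPKM in cKO oocytes, 1.33-fold lower, a log2 ratio of -0.41. *Pkmyt1*, which encodes the membrane-bound kinase MYT1 (chromosome 17, 23726336 to 23736735, plus strand, 8 exons), stood at 11.0 and 8.08 FPKM, 1.36-fold lower, a log2 ratio of -0.44. The ratio of *Wee2* to *Pkmyt1* was 13.2 in wild type and 13.4 in the cKO library. *Pkmyt1* overlaps *Paqr4* on the other strand by 550 bases, and *Paqr4* stood at 26.0 and 52.2 FPKM. Whether reads were counted by strand is not stated in the labels, so reads from this overlap could belong to either gene. The deposited table gives *Pkmyt1* and *Paqr4* the same locus, ending at 23740330, which is 3595 bases past the annotated end of *Pkmyt1*. *Pkmyt1* moved farthest when the length and GC trend was removed, to a log2 ratio of -0.95, against -0.31 for *Wee2*. The likeness of the 2 genes thus depends on keeping that trend. The somatic kinase gene *Wee1* went the other way, at 7.19 and 12.0 FPKM, a log2 ratio of 0.73. The level of *Wee2* was 20.1 times that of *Wee1* in wild type and 9.02 times in the cKO library.

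Activating and inhibiting enzymes together give the balance at the mRNA level. The 3 CDC25 genes summed to 64.7 FPKM in wild type and 81.8 FPKM in cKO oocytes, and *Wee2* with *Pkmyt1* to 155 and 117 FPKM. The ratio of the first sum to the second was 0.417 in wild type and 0.701 in the cKO library, 1.68 times as high. With *Wee1* added to the second sum the ratios were 0.398 and 0.636, 1.60 times as high. Inhibitory kinase mRNA exceeded CDC25 mRNA in both libraries. With the length and GC trend removed, the log2 ratios of *Cdc25b* and *Wee2* were 0.28 and -0.31, against 0.61 and -0.41 as deposited. That of *Pkmyt1* moved the other way, from -0.44 to -0.95. The ratios of the sums were not computed with that trend removed.

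**Figure D2:**
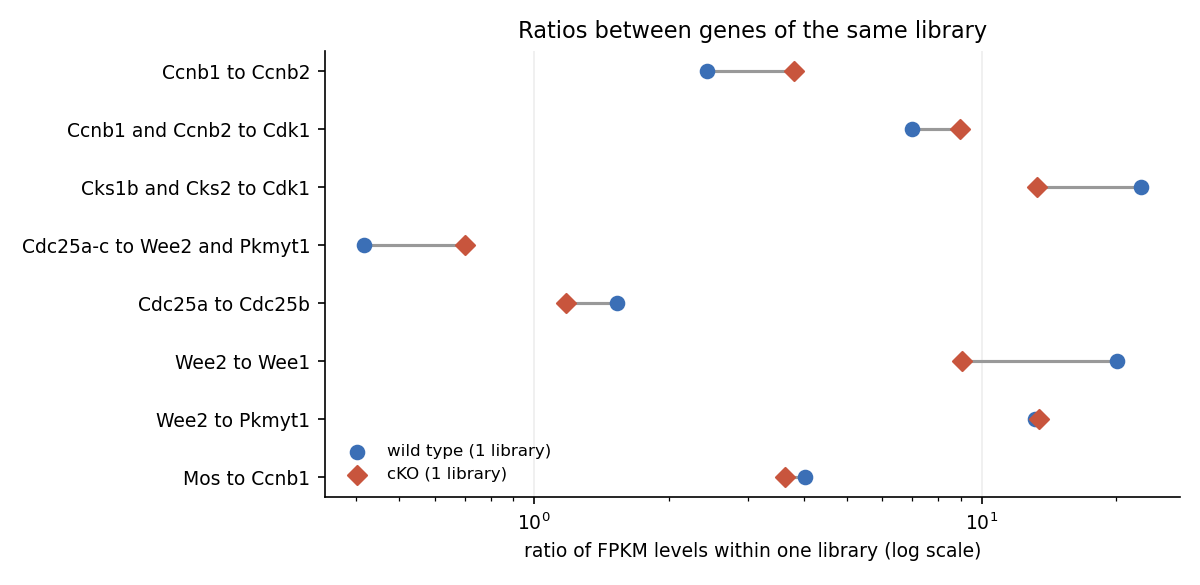
Ratios of FPKM levels between genes or sums of genes of the same library, on a log scale, as circles for the wild type and diamonds for the cKO library. The CDC25 genes over *Wee2* and *Pkmyt1* gave 0.417 and 0.701, *Wee2* over *Wee1* 20.1 and 9.02, and *Wee2* over *Pkmyt1* 13.2 and 13.4.

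*Mos* (chromosome 4, 3870657 to 3872105, minus strand, 1 exon) was the most abundant of the 10 genes. It stood at 754 FPKM in wild type and 733 FPKM in cKO oocytes, a log2 ratio of -0.04. Only 139 genes in wild type and 96 genes in the cKO library had a higher FPKM. The direction of *Mos* depends on the scaling: its log2 ratio was 0.20 with TPM, 0.16 with totals taken without the 50 most abundant genes and 0.00 with the length and GC trend removed, and -0.10 with median-of-ratios scaling.

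**Figure D3:**
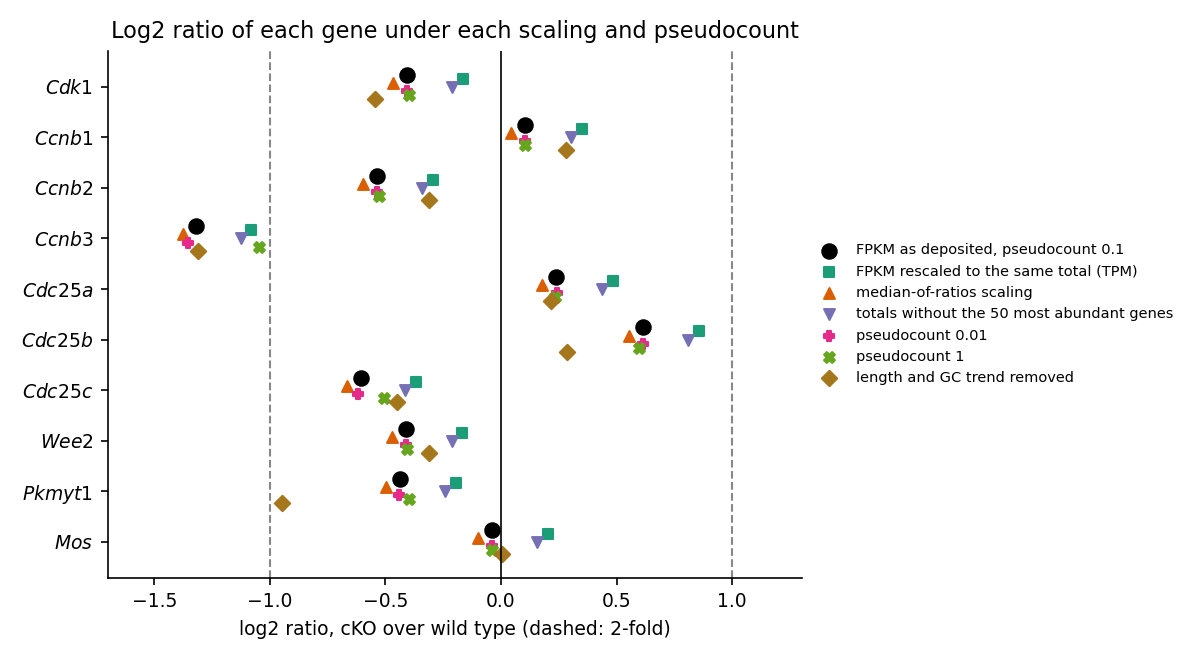
Log2 ratio of each of the 10 genes, cKO over wild type, with FPKM as deposited (black circles) and under 6 alternative scalings, pseudocounts and corrections (coloured symbols); dashed lines mark 2-fold. *Ccnb3* is the 1 gene past the dashed line, at -1.38 to -1.05, and *Mos* the 1 gene whose sign changes, at -0.10 to 0.20.

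Stored maternal mRNAs such as *Mos* and *Ccnb1* are known for cytoplasmic polyadenylation elements (CPEs), U-rich sites near the mRNA end that CPEB proteins bind. The last 100 bases of the annotated 3′ UTR were searched on the transcribed strand for TTTTAT and TTTTAAT. Of the 10 genes 2 held a match, *Wee2* with 2 matches and *Ccnb3* with 1, and 17.7% of 19141 genes did. The last match of each is shown in capitals in a window of 30 bases, starting 18 bases (*Wee2*) and 68 bases (*Ccnb3*) from the annotated end.
Wee2: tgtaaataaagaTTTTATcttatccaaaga
Ccnb3: aattacTTTTATgaaagaagagaaattgtt
As given above, *Wee2* stood at 144 and 109 FPKM and *Ccnb3* at 5.54 and 2.16 FPKM. For the other 8 genes these letters were not in this window, which says nothing of sites farther from the end or at another polyadenylation site.

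None of the 10 genes was in the authors' deposited lists of higher (500) or lower (358) genes, which hold 2.71% and 1.94% of the genes of the full table. A low FDR alone did not place a gene in these lists. *Fzr1*, with a fold of 1.91 and an FDR of 5.36e-11 in the authors' deposited table, is in neither. An FDR under 0.05 in the authors' deposited table was listed for 0 of the 10, against 7.93% of all genes. A p-value under 0.05 in the authors' deposited table was listed for 3 of the 10, *Mos* (p = 0.00675, FDR = 0.0772), *Ccnb1* (p = 0.0193, FDR = 0.177) and *Cdc25b* (p = 0.0281, FDR = 0.235), against 13.4% of all genes. *Ccnb3*, with the largest fold of the 10, had p = 0.522 and an FDR of 1 in the authors' deposited table. Which test gave these p-values is not named in the labels or headers, and it compared 2 libraries.

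The p-values in the authors' deposited table did not peak at a fold of 1. Of genes whose larger FPKM was 20 or above, 217 had a deposited p-value of at least 0.9. Their median fold in the authors' deposited table was 0.845, the log2 folds ran from -0.34 to -0.14, and 0 of the 217 had a fold above 1. The summed FPKM of the cKO library was 0.844 times that of the wild type library. *Mos*, listed as DOWN with a fold of 0.972 in the authors' deposited table, and *Ccnb1*, listed as UP with a fold of 1.08, both lay above 0.845. Their log2 ratios in TPM were 0.20 and 0.35. TPM rescales by the same sums, so a fold above 0.844 must be above 0 in TPM, and this is no separate evidence of direction. *Cdk1* and *Wee2*, with deposited folds of 0.754 and 0.752, lay just below 0.845, and the authors' deposited table lists p = 0.714 and p = 0.378 for them.

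**Figure D4:**
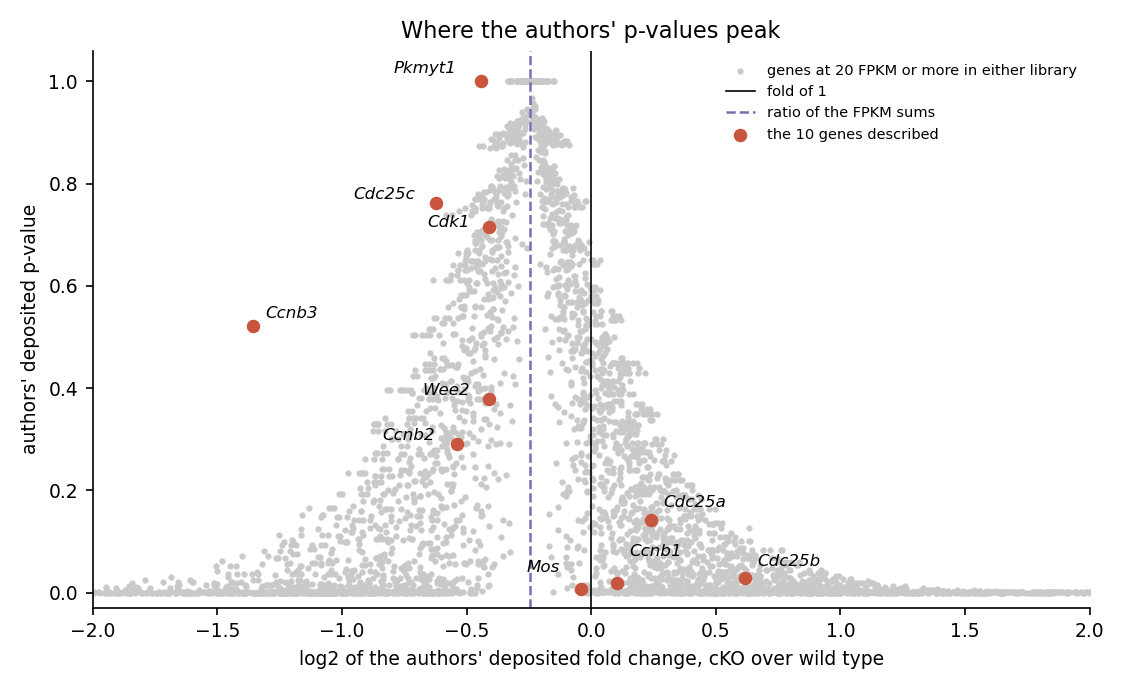
The authors' deposited p-value against the log2 of their deposited fold change, for genes whose larger FPKM was 20 or above (grey) and for the 10 genes described (red); the solid line marks a fold of 1 and the dashed line the ratio of the FPKM sums, 0.844. The p-values peak at the dashed line, and *Mos* lies between the lines near the bottom.

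Other genes of CDK1 control were examined as a list of 43, of which 42 had values and 39 reached 1 FPKM. By the rule of size 3 were higher and 5 lower in the cKO library, against 18.2% and 12.2% of all genes, and the median log2 ratio was -0.08 against 0.06. In either direction 30.4% of all genes passed the rule, the share to set beside the counts by arm below. In TPM, 4 were higher and 2 lower, against 23.9% and 8.11% of all genes, and the median was 0.16 against 0.30 for all genes. Of the genes of this list past the rule as deposited, only *Cks1b* and *Cks2* were in the authors' deposited lists. The others past the rule had an FDR above 0.05 in the authors' deposited table.

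The 5 genes of the CDK-activating kinase and the Cks proteins all had a log2 ratio below 0, as deposited and under the same 6 alternatives, and 3 were at least 2-fold lower as deposited. Of all genes at 1 FPKM or more, 46.8% were below 0 and 12.2% at least 2-fold lower. *Cks1b* and *Cks2* encode small proteins that dock CDK1 to its substrates, and CKS2 is needed in mouse meiosis. *Cks1b* stood at 335 FPKM in wild type and 125 FPKM in cKO oocytes, 2.68-fold lower. *Cks2* stood at 522 and 253 FPKM, 2.06-fold lower. Both were in the authors' deposited list of lower genes, with an FDR of 6.17e-14 and 9.19e-12 in the authors' deposited table. The summed *Cks1b* and *Cks2* level was 22.7 times that of *Cdk1* in wild type and 13.3 times in the cKO library. Both have near-identical copies (3 for *Cks1b*, at up to 94.8% identity, and 5 for *Cks2*, at up to 100% over 240 bases), so read assignment is uncertain. With the length and GC trend removed their log2 ratios were -0.90 and -0.29, and *Cks2* was at -0.80 in TPM, all short of 2-fold. *Cdk1* was at -0.55 with that trend removed, between them, so their lower ratio to *Cdk1* in the cKO library depends on keeping the trend. *Mnat1*, the assembly factor of the CDK-activating kinase, stood at 19.8 and 5.85 FPKM, 3.38-fold lower, and stayed past 2-fold under all 6 scalings, pseudocounts and corrections. Unlike *Cks1b* and *Cks2*, *Mnat1* was in neither of the authors' deposited lists. The kinase subunit gene *Cdk7* stood at 26.9 and 15.04 FPKM and its cyclin gene *Ccnh* at 8.18 and 5.27 FPKM.

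The cyclin E genes, whose products pair with CDK2, were higher. *Ccne1* stood at 3.28 FPKM in wild type and 11.7 FPKM in cKO oocytes, 3.58-fold higher, and *Ccne2* at 5.02 and 10.7 FPKM, 2.13-fold higher (0.96 on the log2 scale if the pseudocount is 1). *Ccna2*, the cyclin A gene shared by mitosis and meiosis, stood at 34.0 and 39.3 FPKM, and *Cdk2* at 6.85 and 6.54 FPKM.

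In the PLK1 and Aurora A arm, which starts the CDC25 loop, *Bora*, the gene of an activator of PLK1, stood at 19.8 and 8.89 FPKM, 2.23-fold lower (a log2 ratio of -0.91 in TPM). *Plk1* stood at 57.0 and 43.2 FPKM and *Aurka* at 128 and 129 FPKM. In the Greatwall arm, which restrains the phosphatase PP2A that opposes CDK1, 1 of 8 genes passed the rule. It was *Ppp2cb*, a catalytic subunit gene, at 3.51 and 13.8 FPKM, 3.93-fold higher. The other catalytic subunit gene, *Ppp2ca*, stood at 69.4 and 61.7 FPKM. *Mastl*, the Greatwall kinase gene, stood at 23.0 and 14.9 FPKM.

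Of the MAP kinase genes below MOS, 0 of the 6 that reached 1 FPKM passed the rule, and their log2 ratios ran from -0.68 (*Rps6ka3*) to 0.67 (*Rps6ka1*). The abundant kinase gene *Mapk3* stood at 173 and 193 FPKM. Among the brakes on entry into division, 1 of 8 passed. It was the phosphatase gene *Cdc14b*, at 31.7 and 14.7 FPKM, 2.15-fold lower (a log2 ratio of -0.86 in TPM). The checkpoint kinase gene *Chek1* stood at 90.3 and 89.9 FPKM.

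Of the 4 genes of cyclin B destruction 0 passed the rule. *Fzr1* encodes CDH1, which keeps cyclin B1 low in prophase-arrested oocytes. It stood at 112 FPKM in wild type and 214 FPKM in cKO oocytes, a log2 ratio of 0.93. The authors' deposited table lists an FDR of 5.36e-11 for *Fzr1*, which is in neither of their lists. Its log2 ratio was 1.18 in TPM and 0.18 with the length and GC trend removed. The other activator gene of the same ligase, *Cdc20*, stood at 48.9 and 52.1 FPKM, and the inhibitor genes *Fbxo5* and *Fbxo43* at 94.5 and 77.5 FPKM and at 11.5 and 11.5 FPKM. *Fzr1*, *Cdc20* and the other genes of this list that did not pass the rule, except *Wee1*, were named after their values were seen.

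**Figure D5:**
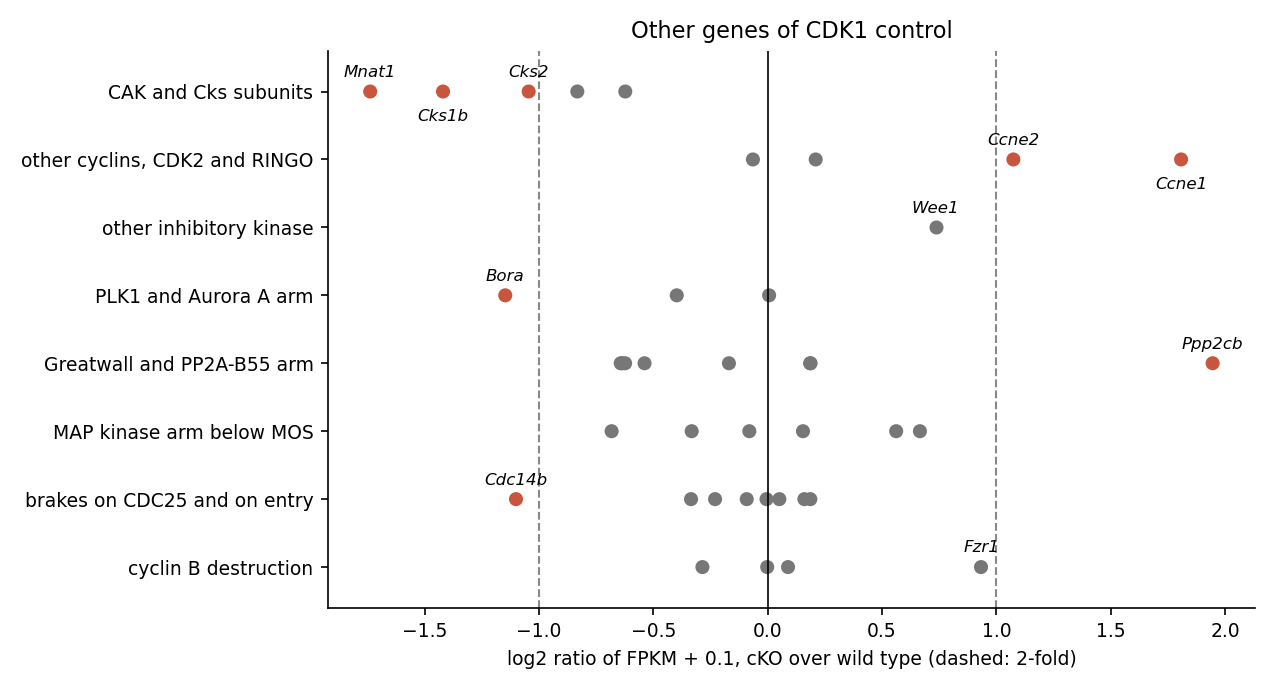
Log2 ratio of FPKM + 0.1, cKO over wild type, for the 39 other genes of CDK1 control at 1 FPKM or more, by arm; red points are at least 2-fold apart and dashed lines mark 2-fold. All 5 genes of the CAK and Cks subunits lie left of 0, and the 3 higher genes are *Ccne1*, *Ccne2* and *Ppp2cb*.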

How the data were processed

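RNA was taken from oocytes with Trizol and libraries were made from 1 ug with a TruSeq RNA kit, per the labels' protocols. Bowtie 0.12.2 and the mouse build mm10 are named in the submitters' processing notes; gene assignment, annotation and test are not given in the sources used here. The authors deposited 3 tables with 1 FPKM value per gene and library, their fold change (a ratio checked here to equal the quotient of the FPKM columns within 1% for 16113 genes), a p-value and an FDR. An FPKM of 1e-05 was read as 0, and 1 line held no values. KO in a column name was read as cKO, and NC, the name of the remaining column, as wild type. Depth is unknown. No counting interval is given.

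Log2 ratios used a pseudocount of 0.1, which understates changes of low genes. The rule of size needed 1 FPKM and a log2 ratio of 1. Calculations were checked on simulated data (Python 3.11.15, numpy 2.4.6, pandas 2.3.3). Positions, length and GC content were taken from GENCODE M21, whose assembly GRCm38 is that of mm10, and copies from BLAST 2.17.0. Named were the 10 genes, *Kat8*, *Wee1* and up to 8 genes in each direction of the wider list past the rule. The genes and lists were chosen with earlier results of these data known. Alternatives covered scaling, pseudocount, floor, fold and the length and GC trend.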

Additional observations from a re-analysis of the deposited data

How the results depend on the processing

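The count of 1 lower and 0 higher genes among the 10 held under each of 3 other scalings, pseudocounts of 0.01 and 1, removal of the length and GC trend, and floors of 0 and 5 FPKM. With a 1.5-fold rule 1 gene was higher and 2 were lower, against 29.1% and 23.2% of all genes. The median of the 10 ran from -0.47 (median-of-ratios scaling) to -0.17 (TPM), below that of all genes in each setting (0.00 and 0.30 in these). TPM also moved the calls over all genes from 2149 higher and 1442 lower to 2829 and 958. In the wider list, 2 genes were lower with TPM, 2 with totals taken without the 50 most abundant genes and 3 with the length and GC trend removed, against 5; its median was 0.16 with TPM and 0.12 with totals without those genes, against -0.08. Of the 10 genes, *Ccnb3* and *Cdc25c* had the lowest FPKM in both libraries, where 1 fragment weighs most. No paired analysis was possible because each group is 1 library.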

Other observations

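Of 7 genes that mark dividing cells, most of which oocytes also express, 6 had a log2 ratio (cKO over wild type) below 0, and the median was -0.93. Over all 11816 genes 5535 were below 0 and the median was 0.06. Past the 2-fold rule were 2, both lower, against 12.2% of all genes. They were *Pcna*, the sliding clamp of DNA polymerases (59.0 FPKM in wild type and 25.9 FPKM in cKO oocytes), and *Cenpf*, a kinetochore protein gene (58.4 and 28.1 FPKM). *Birc5*, which encodes the chromosomal passenger survivin, was the most abundant, at 1554 and 1384 FPKM. Of 6 blood and endothelial markers 5 had values, and the haemoglobin gene *Hba-a1* was the most abundant, at 51.5 and 14.99 FPKM. It was the 1 of 2 at 1 FPKM or more that was at least 2-fold lower.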
